A study of Mus musculus with 2 samples.

Results

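Arginine metabolism and alternative activation were followed through 10 mouse genes: Arg1, Arg2, Slc7a2, Nos2, Odc1, Retnla, Chil3, Il4ra, Mgl2 and Clec10a. These 10 genes, of 32524 in the deposited tables, were taken by symbol, and each had at least 1 UMI in the cells kept. The set was chosen from measured values of the same libraries, among them the difference between the treatments, so every difference between the libraries given here is a description and carries no test.

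The cells were sorted as CD45+CD11b+, leukocytes that carry an integrin of myeloid cells, from the synovium of wild-type C57BL/6 mice 17 days after arthritis induction. The animals entered the experiment at an age between 7 and 10 weeks. One group had received 1 mg β-glucan, a glucose polymer of fungal cell walls that elicits trained immunity (BGL), 7 days before induction, and the other had received PBS at that time. The sample labels describe arthritis induced by a cocktail of antibodies followed by LPS, whereas the study's text describes transfer of K/BxN serum, and both groups had the same induction in either account. Each group was 1 library made from 4 pooled mice, with no map from cells to mice, so there was no replicate check, no test across samples was possible, and the number of mice behind a value cannot be told. The methods name β-glucan from Trametes versicolor and from Saccharomyces cerevisiae and do not say which was used here.

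After cells with fewer than 500 genes or more than 10% mitochondrial UMIs were left out, 5696 BGL cells and 4553 PBS cells remained. Their median depth was 12458 UMIs in the BGL library and 14475 in the PBS library. A UMI of Ptprc, which encodes CD45, was found in 93.8% of BGL and 94.1% of PBS cells, and a UMI of Itgam, which encodes CD11b, in 78.0% and 78.9%. Only 7 barcodes occurred in both libraries. The rebuilt clusters numbered 18, of which 9 formed the main myeloid compartment with 4615 BGL cells (81.0%) and 3674 PBS cells (80.7%). Levels are UMIs of a gene per 1000000 UMIs (CPM), summed over the cells named. Intervals are exact, at 95%, and cover counting error only; they treat each UMI as independent, which they are not where a few cells hold most of a gene's UMIs.

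Arginine enters macrophages through cationic amino acid transporters and is then divided between competing enzymes. Arginases split it into ornithine and urea, ornithine decarboxylase turns ornithine into a polyamine precursor, and the inducible nitric oxide synthase uses arginine to make nitric oxide. Interleukin-4 and interleukin-13 signal through receptors that share one chain, activate STAT6 and induce arginase 1 together with secreted proteins and lectins that mark alternatively activated macrophages in mice.

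The compartment held clusters 0, 1 and 3, which were macrophage-like, clusters 5 and 6, which were like antigen-presenting cells (APC-like) by MHC class II genes, cluster 17, which was type 1 dendritic-like, and clusters 2, 4 and 8, which remained unnamed. Cluster 0 was led by Ednrb and Cd163, cluster 1 by Vsig4 and S100b, and cluster 3 by Apoe and Gpnmb. Cluster 5 was led by Ccl17 and Cd209a, with Retnla and Mgl2 also among its 10 leading genes. Cluster 6 was led by H2-Aa and H2-Eb1, cluster 2 by Fxyd2 and Aqp1, and cluster 4 by Spp1 and Rgs1. Cluster 8 had the lowest median depth of the compartment, at 5280 UMIs in BGL and 4912 in PBS cells. Clusters 0, 1 and 3 had no macrophage marker among their 10 leading genes, though 7 such markers had a UMI in at least 25% of the cells of each. Cluster 1 had a monocyte marker among its leading genes. Values are therefore given by cluster number and not by class. The principal components were computed without the 10 genes and the listed genes described further on.

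Across the compartment, Arg1, Slc7a2 and Retnla were lower in the BGL library by the widest margins, Chil3 and Mgl2 were lower to a smaller extent, and Odc1, Clec10a and Il4ra were close in the 2 libraries. Of the 8 genes that averaged 5 CPM or more, 1 was higher and 7 were lower with BGL, where 57.6% of the 9811 genes of the compartment at that level were higher. None of these 8 was at least 0.5 log2 higher, where 0.877% of the 9811 genes were, and 5 were at least 0.5 log2 lower, where 1.23% of all genes were. Such differences helped to choose the genes, so nothing is read from these counts. The median log2 ratio of the 8 genes was -0.77, and that of the 9811 genes was 0.03. Without cells holding 10 or more Arg1 UMIs, again 5 genes were at least 0.5 log2 lower (1.02% of 9802 genes) and 0 were at least 0.5 log2 higher (0.775%), and the median of the 8 genes was -0.57. Of the 5 genes, Arg1, Mgl2 and Chil3 did not pass 0.5 under every setting described further on. Just inside and outside the bound of 0.5 were Mgl2, with a log2 ratio of -0.61, and Odc1, with -0.25.

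**Figure D1:**
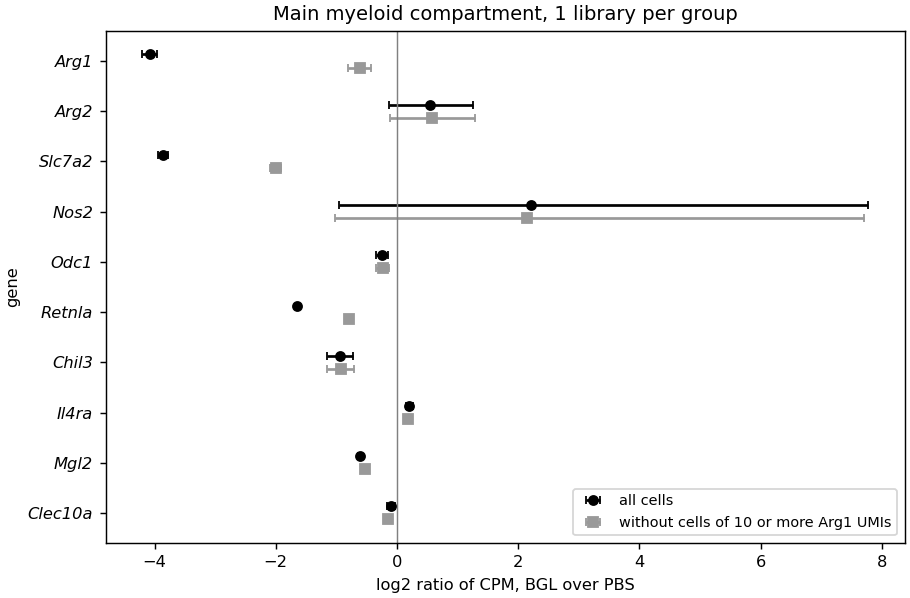
Log2 ratio of CPM, BGL over PBS, for each of the 10 genes in the main myeloid compartment, over all cells (circles) and without cells of 10 or more Arg1 UMIs (squares), with exact 95% counting intervals (bars). Arg1 moved from -4.08 to -0.62 and Slc7a2 from -3.86 to -1.997 when those cells were left out, whereas Il4ra stayed at 0.20 and 0.18.

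The 250 bases before the start of the canonical transcript are shown for Retnla, Arg1 and Slc7a2, the 3 genes that were high together in single PBS cells (GRCm39, GENCODE M39). They were searched on both strands for a STAT6 motif (TTC and GAA with any 4 bases between them), a C/EBP motif (TTGCNNAA) and a PU.1 motif (GAGGAAG), and matches are in capitals. Of 21416 promoters of this length, 5.86% held the STAT6 motif, 9.39% the C/EBP motif and 10.4% the PU.1 motif. The Retnla window, chr16:48662645-48662894 on the plus strand, held all 3, with PU.1 letters beginning 120, STAT6 letters 68 and C/EBP letters 57 bases before the start.
Retnla: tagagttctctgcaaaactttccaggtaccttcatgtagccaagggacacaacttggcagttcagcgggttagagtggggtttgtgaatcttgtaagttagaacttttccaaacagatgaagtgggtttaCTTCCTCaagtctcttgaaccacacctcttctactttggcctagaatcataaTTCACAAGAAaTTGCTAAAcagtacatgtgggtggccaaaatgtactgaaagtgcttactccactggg
The windows of Arg1, chr10:24803517-24803766 on the minus strand, and Slc7a2, chr8:41315183-41315432 on the plus strand, held none of the 3 motifs.
Arg1: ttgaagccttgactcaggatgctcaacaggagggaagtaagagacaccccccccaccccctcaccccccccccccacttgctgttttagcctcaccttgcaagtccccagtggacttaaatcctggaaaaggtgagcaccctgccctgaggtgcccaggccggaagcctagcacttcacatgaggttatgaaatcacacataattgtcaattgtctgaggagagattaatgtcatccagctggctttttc
Slc7a2: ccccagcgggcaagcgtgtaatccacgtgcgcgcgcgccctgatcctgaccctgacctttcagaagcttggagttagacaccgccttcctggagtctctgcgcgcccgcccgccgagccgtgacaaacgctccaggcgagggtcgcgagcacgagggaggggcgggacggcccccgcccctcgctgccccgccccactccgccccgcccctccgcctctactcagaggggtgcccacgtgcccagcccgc
Among the other genes, Arg2 held the STAT6 letters 211 bases before its start and Nos2 the C/EBP letters 24 bases before. Odc1, Mgl2 and Clec10a held the PU.1 letters 194, 22 and 152 bases before their starts, and Chil3 and Il4ra held no match. All starts are those of canonical transcripts. The windows of Arg1, Odc1 and Clec10a (chr11:70057218-70057467) therefore lay wholly within the spans of these genes and not upstream of them. A match is a match of letters and says nothing of binding, and the absence of one concerns this window alone.

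Arg1, the cytosolic arginase, lies on chromosome 10 at 24791118 to 24803817 with 8 exons in its canonical transcript. It had 553 UMIs in BGL and 8643 in PBS cells of the compartment, or 8.46 and 143 CPM, which is 16.9-fold lower with BGL (log2 ratio -4.08, interval -4.20 to -3.95). Few cells carried this difference: 12 of 5696 BGL cells (0.211%, interval 0.109 to 0.368) and 118 of 4553 PBS cells (2.59%, interval 2.15 to 3.1) held 10 or more Arg1 UMIs. Those cells held 28.9% of all Arg1 UMIs in the BGL library and 93.4% in the PBS library. No BGL cell reached 50 Arg1 UMIs, and the highest had 25. In PBS 29 cells had 50 to 99 UMIs and 29 had 100 or more, with 399 in the highest. Cells with a single Arg1 UMI were about as frequent in both, at 173 BGL cells (3.04%) and 172 PBS cells (3.78%).

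**Figure D2:**
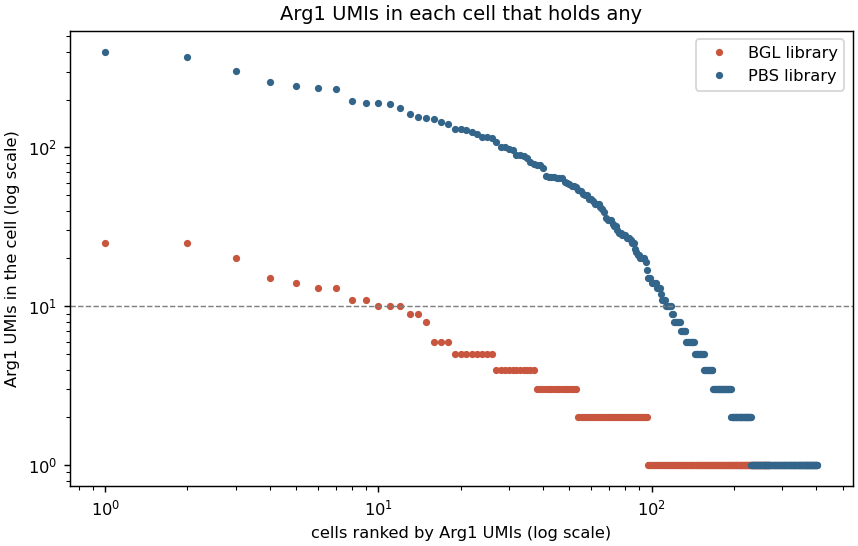
Arg1 UMIs in each cell that holds any, ranked from highest to lowest within each library, both axes on log scales, with a dashed line at 10 UMIs. The PBS curve begins at 399 UMIs and crosses the line at its cell 118, whereas the BGL curve begins at 25 and crosses it at its cell 12.

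The 118 cells were spread over several clusters of the PBS library. Cluster 5 held 57 of them (10.3% of its 552 cells), cluster 6 held 17, cluster 1 held 16, cluster 2 held 14, and 5 were in the proliferating-like cluster 14. By level, PBS cluster 5 led with 473 CPM, followed by cluster 14 (198 CPM, of whose 514 UMIs 373 came from 1 cell), cluster 6 (114 CPM), cluster 1 (81.5 CPM) and cluster 2 (65.4 CPM). The counting intervals of these neighbours did not overlap, but they treat UMIs as independent, and the place of cluster 14 rests largely on that 1 cell. In the BGL library the order was another one: cluster 4 came first with 24.2 CPM, then cluster 3 and the T cell-like cluster 10 with 17.7 CPM each, and the interval of cluster 10 included both neighbours. Cluster 5 had 6.97 CPM there. B cell-like cells of cluster 7, which should lack Arg1, had 7.12 CPM in BGL and 5.31 CPM in PBS, from 3 cells and 1 cell. Of the 12 BGL UMIs there, 10 were in 1 cell. Thinned to 3000 UMIs, 0 of 249 BGL and 1 of 210 PBS cells of cluster 7 had an Arg1 UMI (0% and 0.476%; 0 of 249 allows up to 1.20%), where cluster 5 had 1 of 352 BGL cells (0.284%) and 71 of 547 PBS cells (12.98%). Arg1 in BGL cluster 5 was therefore not above cluster 7, and the BGL levels of clusters 0, 1, 2 and 6, from 0.581 to 5.82 CPM, were below that of cluster 7 as well. This comparison of levels rests largely on 1 cell of cluster 7. Without cells of 10 or more Arg1 UMIs, BGL cluster 7 was at 1.21 CPM. Clusters 1, 2, 5 and 6 were then above it, at 3.62, 3.13, 2.53 and 3.29 CPM, and cluster 0 was below, at 0.581 CPM. Against PBS, BGL was lower in clusters 0, 1, 2, 4, 5 and 6 and higher in cluster 3 (17.7 against 13.2 CPM, log2 ratio 0.43, interval 0.05 to 0.81). The T cell-like cluster 10 had 17.7 CPM in BGL and 39.0 CPM in PBS, and 2 of its PBS cells held 10 or more Arg1 UMIs. Whether the Arg1 UMIs of cluster 10 are background was not tested. A UMI was found in 4.5% and 4.27% of its thinned cells. The shares were 3.69% and 4.07% in cluster 3 and 4.76% and 4.49% in cluster 4. Nothing is therefore read from the sign in cluster 3. In cluster 5 the log2 ratio was -6.09 (interval -6.51 to -5.70). Its BGL level, and those of clusters 0, 1, 2 and 6, could not be securely told from background. The levels of clusters 3 and 4 were above those of cluster 7 and not securely above those of cluster 10 in either library. The ratios of these clusters are therefore not measures of the size of the gap in Arg1 expression.

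Without the cells of 10 or more Arg1 UMIs, 399 BGL and 540 PBS UMIs were left in the compartment, or 6.13 and 9.40 CPM, and the log2 ratio was -0.62 (interval -0.81 to -0.43). The cells left out are defined by Arg1 itself and held 93.8% of the PBS Arg1 UMIs of the compartment, so a smaller difference follows from the rule. In cluster 5 the log2 ratio was then -2.27, with 2.53 CPM in BGL, where the B cell-like cluster 7 was left with 2 UMIs or 1.21 CPM. In clusters 3 and 4 the log2 ratio was 0.27 and 0.28 with intervals that included 0. The cells of 10 or more Arg1 UMIs were deeper than the others, with medians of 26271 against 12437 UMIs in BGL and 26749 against 14232 in PBS. Their median share of mitochondrial UMIs was 3.46% against 3.29% in PBS. The barcodes with the highest Scrublet doublet scores, 5.76% of BGL and 4.61% of PBS barcodes, included 2 of the 12 BGL and 5 of the 118 PBS cells. Scrublet called 1 doublet in each library and so had not worked, and nothing is read from these counts. The part of depth and of mixed droplets in the result was not tested. Thinned to 8000 UMIs a cell, the compartment had an Arg1 log2 ratio of -3.54, and with equal weight per cell -3.55. Thinning keeps the expected Arg1 share of each cell, so these values are no test of depth.

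Slc7a2, which encodes the cationic amino acid transporter CAT2 that brings arginine into macrophages, lies on chromosome 8 at 41315431 to 41375345. It had 1303 UMIs in BGL and 17551 in PBS cells of the compartment, or 19.9 and 290 CPM, 14.6-fold lower with BGL (log2 ratio -3.86, interval -3.95 to -3.78). In cluster 5 the BGL library had 19 UMIs in 13 of 352 cells and the PBS library 10767 UMIs in 132 of 552 cells, a log2 ratio of -8.35. Cluster 5 was the highest cluster of the PBS library with 816 CPM and had 2.50 CPM in the BGL library. The B cell-like cluster 7 had 0 Slc7a2 UMIs in BGL and 5.97 CPM in PBS, and 0.568% of thinned BGL cells of cluster 5 had a UMI, under the 1.20% that 0 of 249 cells of cluster 7 allows. The BGL level of cluster 5 could thus not be told from background, and the ratio is no measure of the size of that gap. BGL was also lower in clusters 0, 1, 2, 3, 4 and 6, by 0.43 to 5.33 on the log2 scale, and cluster 8 was level, at 22.2 and 23.2 CPM. The other B cell-like cluster, 15, had 8.15 CPM in BGL, from 7 UMIs, and 0 UMIs in PBS. The BGL levels of clusters 0, 3 and 6, at 6.87, 6.25 and 5.53 CPM, were below that of cluster 15. Their ratios are therefore no measure of the size of the gap either.

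Cluster 1 kept Slc7a2 in both libraries. It held 76.1 CPM in BGL, the highest of that compartment, and 287 CPM in PBS, and 24.3% and 29.2% of its cells had a UMI (11.4% and 13.5% thinned to 3000 UMIs, against 0% and 1.43% in cluster 7). The stromal-like cluster 12 had 112 and 115 CPM, a log2 ratio of -0.04 with an interval of -0.32 to 0.25, so in these cells Slc7a2 was level between the libraries. Other clusters outside the compartment were not level: the neutrophil-like cluster 9 had 9.82 and 66.9 CPM (log2 ratio -2.77), with 88 of the 95 PBS UMIs in 1 cell, and the proliferating-like cluster 14 had 4.81 and 263 CPM (-5.78). Without cells of 10 or more Arg1 UMIs the compartment had 19.9 and 79.6 CPM, a log2 ratio of -1.997 (interval -2.09 to -1.91). Slc7a2 ranked 4 from the lowest log2 ratio of 9811 genes of the compartment with these cells and 4 of 9802 genes without them. Such differences helped to choose the genes, so nothing is read from the rank. PBS cluster 5 still had 124 CPM against 2.13 CPM in BGL cluster 5 after the cells of 10 or more Arg1 UMIs were left out.

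Retnla, which encodes the secreted protein RELMα (FIZZ1) of alternatively activated macrophages, lies on chromosome 16 at 48662895 to 48664824. It had 20979 UMIs in 444 BGL cells and 60738 UMIs in 786 PBS cells of the compartment, or 321 and 1004 CPM, a log2 ratio of -1.65 (interval -1.67 to -1.62). The 10 cells with the most Retnla held 54.7% of the BGL and 25.5% of the PBS UMIs, with up to 2849 UMIs in 1 BGL cell and 1921 in 1 PBS cell, so its level rests on few cells in both libraries. Cluster 5 had the highest level in both, 1329 CPM in BGL and 3037 CPM in PBS, and cluster 6 had 351 and 1582 CPM. In cluster 1 the BGL library had 9.15 CPM and the PBS library 476 CPM, the lowest log2 ratio of the 8 clusters with 50 or more cells in each library, at -5.70. Of the 4336 PBS UMIs of cluster 1, 1562 came from 1 cell, and 13 of its 497 PBS cells held 10 or more.

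In cluster 2 the level went the other way. It had 6226 UMIs in 58 of 642 BGL cells and 3209 UMIs in 102 of 528 PBS cells, so the BGL library had the higher level (647 against 344 CPM, log2 ratio 0.91) and the smaller share of cells with a UMI (9.03% against 19.3%, or 4.84% against 7.98% thinned to 3000 UMIs). The level rests on few cells: 16 BGL and 14 PBS cells of cluster 2 held 10 or more Retnla UMIs. The highest of them held 1198 UMIs in BGL and 1129 in PBS. Without cells of 10 or more Arg1 UMIs the log2 ratio of cluster 2 was 2.09, the highest of the 8 clusters compared. The thinned BGL share of cluster 2 was close to the 4.42% of the B cell-like cluster 7. Cluster 8 had 71.6 and 27.7 CPM (log2 ratio 1.37), with 77 of its 129 BGL UMIs in 1 cell and 4.5% of thinned BGL and 6.87% of thinned PBS cells with a UMI. Retnla UMIs were also found in B cell-like cells of cluster 7, at 54.6 and 63.1 CPM and in 4.42% and 9.05% of thinned cells, so clusters 3 and 4 in both libraries, cluster 1 in BGL and cluster 8 in PBS lay below this background by level and by share, and BGL cluster 8 had nearly the same share of cells as cluster 7. In cluster 7, 1 cell held 35 of the 92 BGL UMIs and 1 cell 55 of the 95 PBS UMIs, so its level rests partly on single cells. The other B cell-like cluster, 15, had 67.6 CPM in BGL and 13.1 CPM in PBS. The ratios of clusters 1 and 8 are therefore taken against a level below that of cluster 7, and nothing is read from the sign in cluster 8. In PBS clusters 1 and 2 the shares of thinned cells, 6.26% and 7.98%, were also under that of cluster 7, and their levels were above it. Without cells of 10 or more Arg1 UMIs the compartment had 322 and 558 CPM, a log2 ratio of -0.79 (interval -0.82 to -0.77), and cluster 5 had 1345 and 1915 CPM. When each cell counted at most 10 Retnla UMIs, a setting chosen after the data were seen, the log2 ratio was -0.98.

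**Figure D3:**
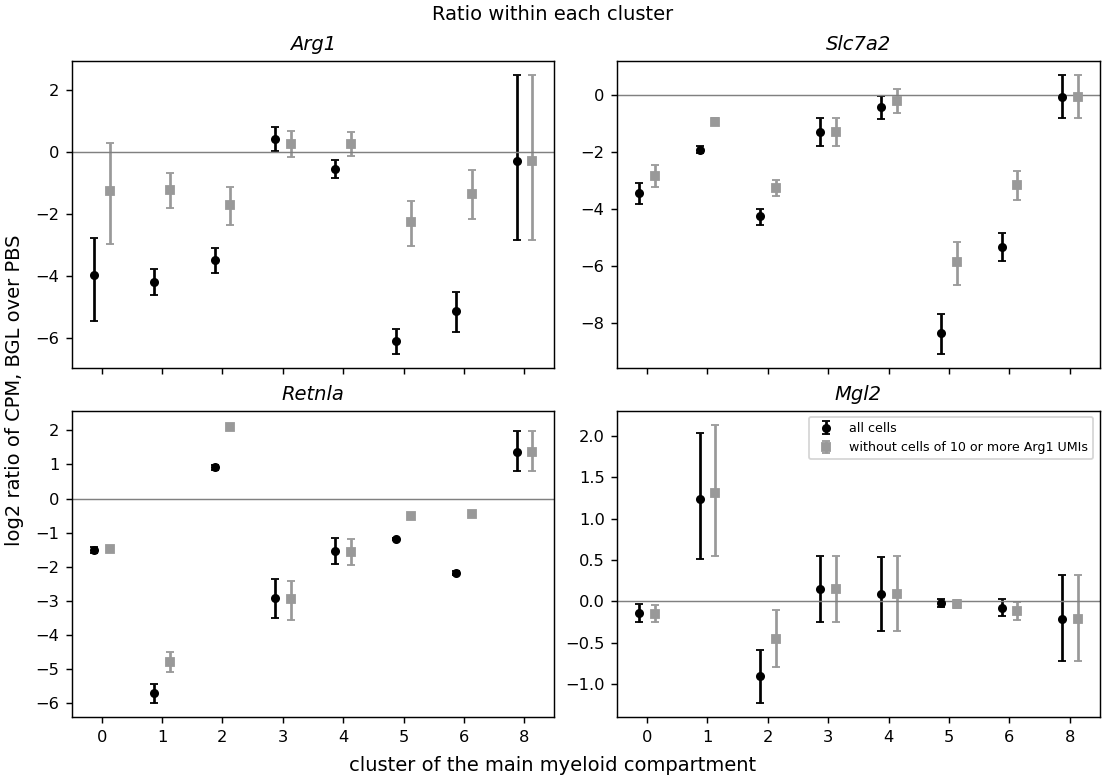
Log2 ratio of CPM, BGL over PBS, within each of the 8 clusters of the compartment with 50 or more cells in each library, for Arg1, Slc7a2, Retnla and Mgl2, over all cells (circles) and without cells of 10 or more Arg1 UMIs (squares), with exact 95% counting intervals. Vertical scales differ between panels. Slc7a2 reached -8.35 and Arg1 -6.09 in cluster 5, with BGL levels of both not securely told from background, and Mgl2 was at -0.02 there. Retnla was above 0 in clusters 2 and 8, and its PBS level in cluster 8 was below background.

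Most PBS cells that were high in Arg1 were also high in Slc7a2, and a smaller share of them in Retnla, whereas too few BGL cells were high in Arg1 for such an overlap to be described. In the PBS compartment 111 cells had 10 or more Arg1 UMIs, 187 had 10 or more Slc7a2 UMIs and 236 had 10 or more Retnla UMIs, with the limit of Arg1 carried over to the other genes. Of the 111, 96 (86.5%) also passed for Slc7a2 and 63 (56.8%) for Retnla, and 60 cells passed for all 3. Read from the other side, 96 of the 187 Slc7a2 cells (51.3%) and 63 of the 236 Retnla cells (26.7%) also passed for Arg1. In the BGL compartment 10 cells passed for Arg1, 30 for Slc7a2 and 126 for Retnla, and the only overlap was 1 cell with Arg1 and Retnla; 0 of 10 Arg1 cells with Slc7a2 leaves an interval up to 30.9%. Of those 30 BGL cells 27 lay in cluster 1, whereas 85 of the 187 PBS cells lay in cluster 5 and 46 in cluster 1.

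The 111 PBS cells with 10 or more Arg1 UMIs had 4217 CPM of Slc7a2, where other PBS cells of the same clusters had 110 CPM, a 38.5-fold difference, and 101 of the 111 had a UMI. They had 9318 CPM of Retnla against 1222 CPM, a 7.62-fold difference. The lectins and the receptor did not share this gap: Mgl2 was at 421 against 482 CPM, Il4ra at 60.4 against 69.8 CPM and Clec10a at 20.5 against 68.1 CPM. Odc1 was at 32.5 against 32.1 CPM, Arg2 had 2 UMIs in these cells, and Nos2 had 0. The 10 BGL cells with 10 or more Arg1 UMIs had 5 Slc7a2 UMIs (19.1 CPM against 14.1 CPM in others) and 20 Retnla UMIs (76.3 CPM against 670 CPM).

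Thinned to 8000 UMIs, 7.43% of PBS compartment cells with no Arg1 UMI had a UMI of Slc7a2, as did 29.8% of those with 1 to 9 and 89.8% of those with 10 or more. In BGL the same shares were 6.28%, 10.6% and 20%, the last of them over 10 cells. For Retnla the PBS shares were 12.9%, 25.3% and 65.7%, and the BGL shares 7.18%, 8.29% and 20%. Clec10a went the other way, from 23.0% to 10.7% and 7.41% in PBS. In BGL its shares were 19.6%, 7.83% and 10%, the last of them over 10 cells.

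**Figure D4:**
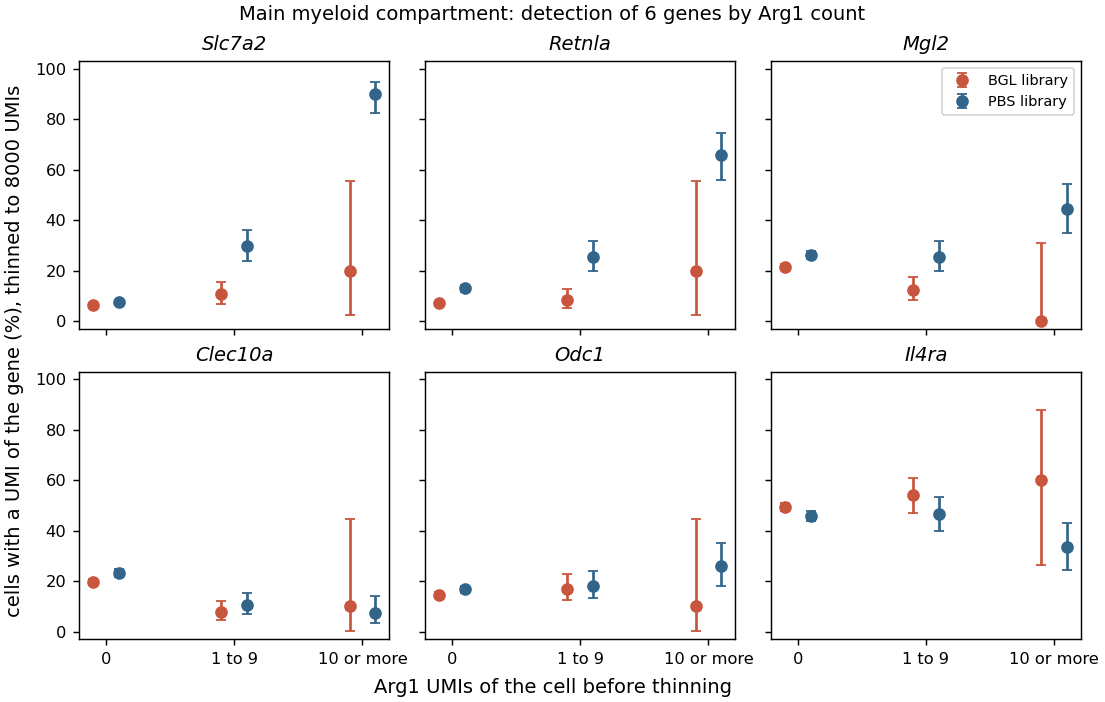
Share of compartment cells, thinned to 8000 UMIs, with a UMI of each of 6 genes, by the Arg1 UMIs of the cell before thinning and by library, with exact 95% binomial intervals. Slc7a2 climbs from 7.43% to 89.8% and Retnla from 12.9% to 65.7% in PBS, and the BGL points at 10 or more rest on 10 cells.

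Mgl2 and Clec10a are neighbouring genes on chromosome 11, at 70020954 to 70028376 and 70047023 to 70061660, and encode the galactose-binding C-type lectins CD301b and CD301a. Mgl2 had 144 CPM in BGL and 219 CPM in PBS cells of the compartment, a log2 ratio of -0.61 (interval -0.65 to -0.57). Within its highest cluster it was level: cluster 5 had 743 and 754 CPM (log2 ratio -0.02, interval -0.07 to 0.03), with a UMI in 77.3% of BGL and 79.2% of PBS cells (61.9% and 61.4% thinned to 3000 UMIs, against 4.42% and 0.952% in cluster 7), and cluster 6 had 239 and 251 CPM. Cluster 5 made up 6.18% of BGL cells (interval 5.57 to 6.84) and 12.1% of PBS cells (interval 11.2 to 13.1), and with equal weight for each cluster the Mgl2 log2 ratio was -0.06. Whether cluster 5 differs in share beyond these 2 libraries was not tested.

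Clec10a was nearly level in the compartment, at 58.0 and 62.1 CPM (log2 ratio -0.10, interval -0.17 to -0.04). Its highest levels were in the mast-like cluster 11, at 229 and 256 CPM, and in cluster 0, at 194 and 218 CPM, and the intervals of these neighbours overlapped in BGL and in PBS. Cluster 6 followed with 91.0 and 101 CPM and cluster 5 with 83.1 and 75.2 CPM. So the lectins had different leading clusters, cluster 5 for Mgl2 and clusters 11 and 0 for Clec10a. They were nonetheless found together: of thinned BGL compartment cells with Mgl2, 50.4% had Clec10a, and of the others 10.7% had it. The shares in PBS were 45.9% and 12.8%.

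Il4ra, the receptor chain common to interleukin-4 and interleukin-13, lies on chromosome 7 at 125151079 to 125182844 and had UMIs in all 18 clusters of both libraries. It had 96.1 CPM in BGL and 83.6 CPM in PBS cells of the compartment, a log2 ratio of 0.20 (interval 0.15 to 0.26), and a UMI in 63.5% and 63.6% of cells (24.4% and 20.3% thinned to 3000 UMIs). The 8 larger clusters of the compartment ranged from 61.3 to 120 CPM in BGL and from 53.0 to 110 CPM in PBS, and B cell-like cluster 7 had 106 and 94.9 CPM. BGL was higher in 7 of the 8 clusters, with intervals above 0 in clusters 0 and 5, where the log2 ratios were 0.33 and 0.21. Cluster 5, which led for Arg1, Slc7a2, Retnla and Mgl2 in PBS, had the lowest Il4ra of these 8 in that library.

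Odc1, the rate-limiting enzyme of polyamine synthesis, lies on chromosome 12 at 17594383 to 17601507. It had 23.8 CPM in BGL and 28.3 CPM in PBS cells of the compartment, a log2 ratio of -0.25 (interval -0.35 to -0.15), and was lower with BGL in 6 of the 8 clusters by small margins. The T cell-like cluster 10 had its highest level, 168 CPM in BGL and 232 CPM in PBS, and cluster 2 was highest in the compartment at 38.7 and 41.6 CPM.

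Arg2, the mitochondrial arginase, was nearly absent from the compartment, with 49 BGL and 31 PBS UMIs there, and was held by the neutrophil-like cluster 9. That cluster had 689 of the 793 BGL UMIs and 569 of the 635 PBS UMIs, or 199 and 401 CPM. Its BGL cells were deeper than its PBS cells, with medians of 9265 and 4544 UMIs. At resolution 1 the cluster parted into one with 113 BGL and 127 PBS cells, where Arg2 had 608 and 714 CPM, and one with 131 and 44 cells, where it had 120 and 148 CPM. The mixture of these 2 clusters therefore differed between the libraries beside the 2.01-fold lower value in BGL cluster 9.

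Nos2, the inducible nitric oxide synthase, had 5 BGL UMIs and 1 PBS UMI in the whole compartment, and 34 and 6 in all cells. Of the 34, 17 came from 1 stromal-like cell and 10 from endothelial-like cluster 16. At this depth the compartment held almost no message of the enzyme that competes with arginase, in either library.

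Chil3, which encodes the chitinase-like protein Ym1, was held by few cells. The compartment had 286 UMIs in 28 BGL cells and 507 UMIs in 62 PBS cells, or 4.37 and 8.38 CPM (log2 ratio -0.94, interval -1.15 to -0.73), and over all cells kept the direction turned, at 9.66 and 9.03 CPM (log2 ratio 0.10, interval -0.06 to 0.25). Of the 757 BGL UMIs over all cells, 255 came from 1 cell of the neutrophil-like cluster 9 and 173 from 1 cell of the proliferating-like cluster 14. In the compartment most BGL UMIs, 253, lay in cluster 8, where the libraries were level at 140 and 134 CPM. At resolution 1 a small cluster with 19 BGL and 21 PBS cells, led by the monocyte marker Plac8, had 1368 and 725 CPM of Chil3.

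**Figure D5:**
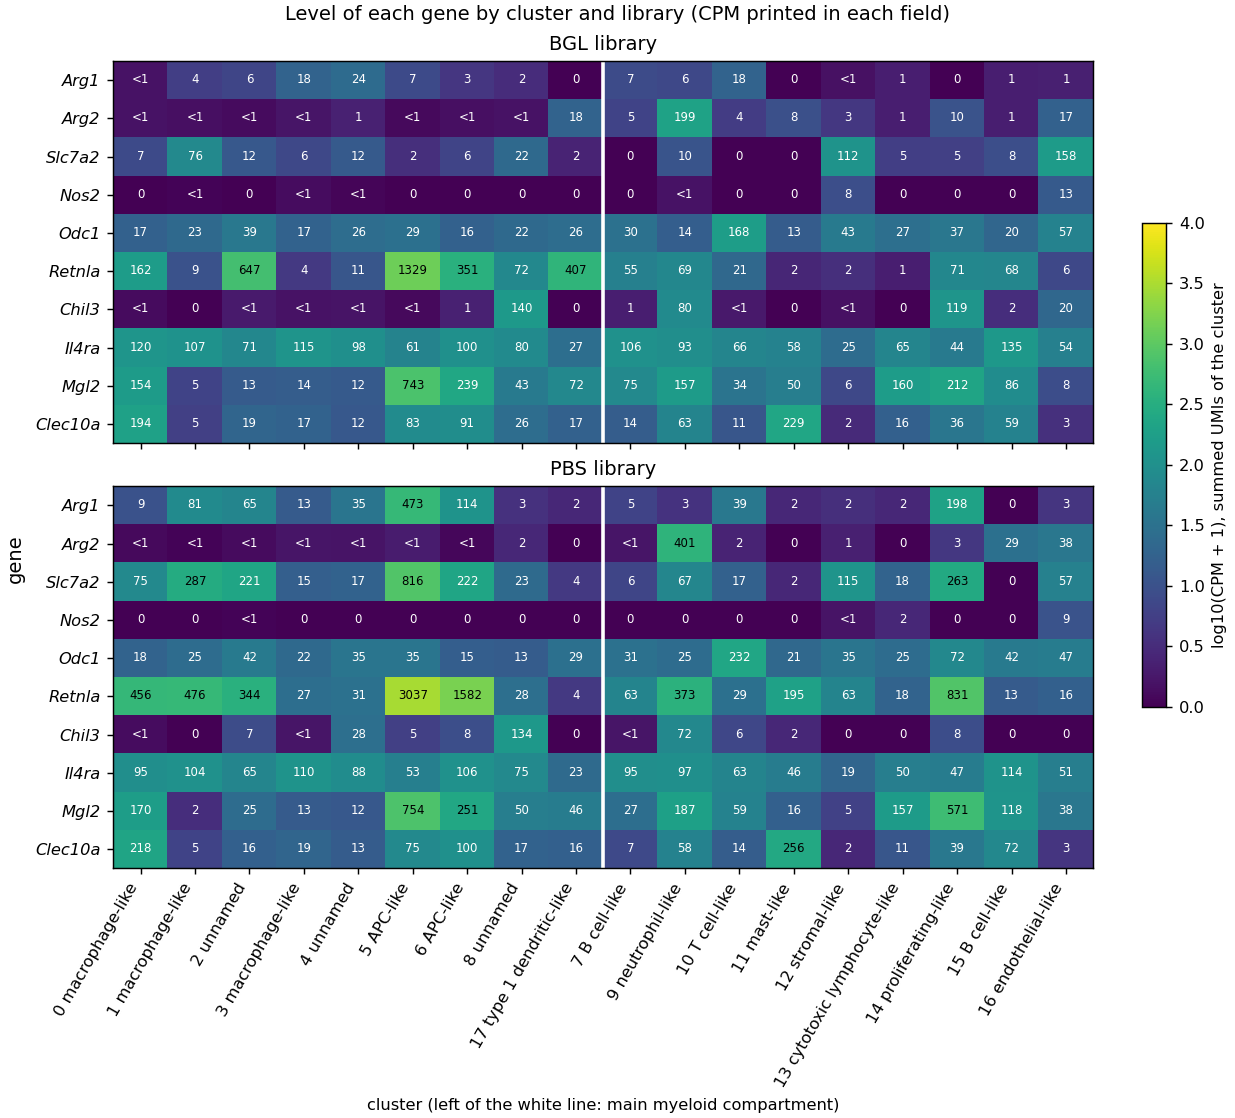
Level of the 10 genes in each of the 18 clusters, as log10(CPM + 1) in colour and CPM in print, for the BGL library (top) and the PBS library (bottom), with clusters of the main myeloid compartment left of the white line. Cluster 5 is brightest for Retnla and Mgl2 in both libraries and for Arg1 and Slc7a2 in PBS, Arg2 stands out in cluster 9, and Il4ra has UMIs in every cluster, from 24.8 to 135 CPM in BGL and from 19.4 to 114 CPM in PBS.

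The lists of genes that follow were chosen with earlier results of these libraries known, so nothing is read from their counts. Of 32 further genes of arginine and polyamine metabolism, 25 averaged 5 CPM or more in the compartment, 5 higher and 20 lower with BGL, with a median log2 ratio of -0.13. Of all 9811 genes 57.6% were higher, and their median was 0.03. Of these 25, 0 were at least 0.5 log2 higher (0.877% of all genes) and 1 at least 0.5 log2 lower (1.23% of all genes). That gene was Azin2, an antizyme inhibitor, at 9.02 and 15.6 CPM (log2 ratio -0.79), named after its values were seen. Without cells of 10 or more Arg1 UMIs it was at 9.06 and 12.2 CPM (-0.43), and 0 of the 25 genes were then at least 0.5 log2 lower. The genes of highest level were Oaz1, the antizyme that restrains ornithine decarboxylase (543 and 598 CPM), Sat1, which acetylates polyamines for export (349 and 376 CPM), and Eif5a, the translation factor that carries a modification made from spermidine (242 and 290 CPM).

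Of 19 genes of interleukin-4 and interleukin-13 signalling 13 had 5 CPM, 6 higher and 7 lower, with a median of -0.02, and 1 was at least 0.5 log2 higher and 1 at least 0.5 log2 lower, beside 0.877% and 1.23% of all genes. Pparg, a nuclear receptor of lipid metabolism, was at 36.2 CPM in BGL and 24.9 CPM in PBS (log2 ratio 0.54), and Kdm6b, a histone demethylase, at 35.1 and 50.0 CPM (-0.51). Without cells of 10 or more Arg1 UMIs Pparg was at 36.2 and 25.8 CPM (0.49), under the bound, and Kdm6b stayed at -0.51. The transcription factor Klf4 was at 387 and 536 CPM (-0.47), and Jak1, the kinase bound to the receptor, at 228 and 219 CPM (0.05). The interleukin-6 receptor Il6ra was at 240 and 226 CPM (0.09).

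Of 23 further markers of alternative activation, 1 was not analysed here, and 17 had 5 CPM. Of these 6 were higher and 11 lower, with a median of -0.17, and 4 were at least 0.5 log2 lower, beside 1.23% of all genes. This list too was chosen with earlier results known, so nothing is read from that count. The 4 were the protease Mmp12 (7.72 and 45.3 CPM, log2 ratio -2.55), the chemokines Ccl17 (40.8 and 131 CPM, -1.68) and Ccl22 (7.06 and 16.2 CPM, -1.20, named after its values were seen), and the ribonuclease Ear2 (12.2 and 25.3 CPM, -1.05). All 4 were named by their ratio. Mmp12 and Ear2 reached 20 CPM in PBS alone, and Ccl22 in neither library. Ccl17 leads cluster 5, whose share differed between the libraries, and the part of that share in the Ccl17 ratio was not tested. Without cells of 10 or more Arg1 UMIs 8 genes of the list were higher and 9 lower with a median of -0.08, and again 4 were at least 0.5 log2 lower (1.02% of all genes). Mmp12 was then at 7.74 and 24.4 CPM (-1.66) and Ccl17 at 40.9 and 122 CPM (-1.58). Of the 3 most abundant markers of the list, the mannose receptor Mrc1 was at 1241 and 1118 CPM (0.15) and the transglutaminase F13a1 at 1500 and 1134 CPM (0.40), both higher with BGL. Fibronectin, Fn1, was lower, at 1969 and 2293 CPM (-0.22), and at -0.08 without cells of 10 or more Arg1 UMIs.

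Of 20 markers of classical activation 11 had 5 CPM, 4 higher and 7 lower, with a median of -0.15, and 1 was at least 0.5 log2 higher and 1 at least 0.5 log2 lower, beside 0.877% and 1.23% of all genes. The interferon-induced GTPase Gbp2 was at 8.73 and 21.8 CPM (log2 ratio -1.32) and the chemokine Ccl5 at 7.86 and 5.19 CPM (0.60, named after its values were seen). The costimulatory protein Cd86 was at 167 and 162 CPM (0.04), the transcription factor Irf5 at 141 and 156 CPM (-0.15) and Socs3, a suppressor of cytokine signalling, at 71.2 and 92.4 CPM (-0.38). The cytokine Il1b was at 31.2 and 24.1 CPM (0.37), and at 30.8 and 19.3 CPM (0.68) without cells of 10 or more Arg1 UMIs, when 2 genes of the list were at least 0.5 log2 higher (0.775% of all genes).

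Over 30 points, 15 clusters in 2 libraries, the genes whose log2(CPM + 1) followed each of the 10 most closely were taken from 10917 genes, and the points share libraries, depth and cell mixtures. Slc7a2 was followed most closely by Azin2 (Pearson r = 0.79), Bnip3 and Insig1, and Arg1 by Ankrd37 (r = 0.72), Rnase2a and Eno1. Retnla had Slc9a4 (r = 0.67), Ms4a8a and Txn2. Mgl2 was nearest to Cd209a (r = 0.90), Cd209d and Clec4b1, and Clec10a to Foxred2 (r = 0.88), Pgap6 and Ccl6. Arg2 was nearest to Mrgpra2b (r = 0.95), Il1f9 and Fpr1, and Chil3 to Cd177 (r = 0.91), Klra2 and Zfp263. Il4ra had Lyl1 (r = 0.89), Rassf2 and Rasgrp3, Odc1 had Ankrd6 (r = 0.88), Tnfsf11 and Arnt2, and Nos2 had Mstn (r = 0.87), Chodl and Rtl4. The highest Nos2 point, 8.27 CPM in BGL cluster 12, came from 17 UMIs of 1 cell, so nothing is read from the Nos2 correlations. For Chil3, 1 cell held 255 of the 276 UMIs of BGL cluster 9 and 1 cell all 173 of BGL cluster 14. Between Arg1 and Slc7a2 themselves r was 0.56, and between Arg1 and Retnla 0.50.

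The kit reads the ends of transcripts, so similar ends could share reads. Of the stretches of 50 bases in the last 500 bases of the canonical transcript, 17.7% of those of Odc1 were also found in transcripts of other genes, as were 17.1% of those of Chil3, in Chil4 and Gm6522. The share was 7.98% for Mgl2 and 0.444% for Slc7a2, and 0% for the other 6 genes. Counts of Odc1 and Chil3 are uncertain to that extent, and Odc1 also overlaps Gm22748 on its own strand.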

How the data were processed

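Droplet-based 3' single-cell RNA sequencing was performed on 1 library per group, pooled from 4 mice. The deposited values are counts that came from Cell Ranger 7.0.0 (GRCm39, Ensembl 104 genes), whole UMIs of each gene in each called barcode, neither scaled nor filtered further by the authors: 81611849 UMIs over 7196 barcodes for BGL and 73874602 over 5760 for PBS. Whether reads in introns were counted is not given in the sources used here, and genes overlapping on the other strand were not separated further.

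The filter on cells asked for 500 genes or more and allowed 10% mitochondrial UMIs. The merged libraries were normalised by sctransform 0.4.2 (3000 variable genes) and clustered by Seurat 5.3.0 under R 4.3.3 from 30 components and 20 neighbours at resolution 0.7, without integration and with 120 genes (the 10 genes, the listed genes and 16 genes that the study compares) kept out of the principal components. A cluster was named where at least 3 markers of a fixed list had a UMI in 25% of its cells and the list's score, a mean log2 difference from the other cells with 10 CPM added, was above 0.5; unnamed clusters without 3 such markers of another class stayed in the compartment. Scrublet, run in scanpy 1.11.5, called 1 doublet in each library and so had not worked; cells were not removed, and leaving out the 414 BGL and 265 PBS barcodes of highest score was an alternative. UMIs were summed per library and cluster and divided by the summed total (CPM). Ratios have exact conditional Poisson intervals and shares exact Clopper-Pearson intervals, at 95%, for counting error only; PCR and cell-to-cell spread are not covered. With 1 library per group no test was run. The interval computation was tested on simulated data. For shares, cells were thinned to 3000 UMIs (8000 in the compartment, which left out 837 BGL and 528 PBS cells).

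Called means a log2 ratio of at least 0.5 among genes with a mean of 5 CPM. Named beside the 10 genes were listed genes with 20 CPM in either library and a log2 ratio of 0.5, the 3 listed genes of highest CPM, and the 3 genes most correlated with each of the 10. Azin2, Ccl22 and Ccl5 were under 20 CPM and were named after their values were seen. The genes, lists and markers were chosen with earlier results of these data known. Annotation was GENCODE M39 (31870 of 32524 genes matched by identifier). Alternatives were the cell filter, clustering resolution and genes, doublet scores, weights, thinning, TMM scaling with edgeR 4.0.16, and limits of 5 and 20 Arg1 UMIs. Python 3.11.15, numpy 2.4.6, scipy 1.17.1 and pandas 2.3.3 were used.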

Additional observations from a re-analysis of the deposited data

Results flagged for a closer look

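For 4 genes the log2 ratio of BGL over PBS was at least 0.5 above 0 in one cluster and at least 0.5 below 0 in another, each with 50 or more cells per library, 20 or more UMIs and a counting interval on one side of 0. Arg1 also had both signs, at 0.43 in cluster 3 and -6.09 in cluster 5, and did not reach 0.5 on the higher side. The differences between clusters were not tested. Retnla was at 1.37 in cluster 8, where PBS (27.7 CPM, 6.87% of thinned cells) was below the B cell-like cluster 7 (63.1 CPM, 9.05%), and at -6.87 in the mast-like cluster 11, where BGL had 1 UMI and PBS 110, 95 of them in 1 cell. Chil3 was at 3.95 in the proliferating-like cluster 14, where 1 BGL cell held all 173 UMIs and 1 PBS cell all 20, and at -5.54 in cluster 4, with 5 UMIs in 4 BGL cells and 172 UMIs in 21 PBS cells. Mgl2 was at 1.65 in cluster 11, with 30 UMIs in 7 BGL cells and 9 UMIs in 6 PBS cells, and at -1.43 in cluster 14, with 309 UMIs in 26 BGL cells and 1484 UMIs in 50 PBS cells. Arg2 was at 1.47 in cluster 14, with 14 UMIs in 3 BGL cells and 9 UMIs in 3 PBS cells, and at -1.01 in the neutrophil-like cluster 9, where it has its highest level.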

How the results depend on the processing

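No paired analysis was possible because each group is 1 library. Each log2 ratio was computed under 16 alternatives, and those of Arg1, Slc7a2 and Retnla stayed below 0 under all of them. Without cells of at least 10, 5 and 20 Arg1 UMIs, Arg1 was at -0.62, -0.25 and -0.93, Slc7a2 at -1.997, -1.63 and -2.21, and Retnla at -0.79, -0.72 and -0.85. With equal weight per cell the 3 genes were at -3.55, -3.43 and -1.54, with equal weight per cluster at -3.60, -3.55 and -1.21, and after thinning to 8000 UMIs at -3.54, -3.60 and -1.47. With each cell capped at 10 UMIs of the gene, chosen after seeing the data, they were at -1.84, -1.40 and -0.98. With a stricter cell filter (1000 genes, 5% mitochondrial UMIs) Slc7a2 was at -3.77 and Retnla at -1.57, over all cells kept at -3.59 and -1.72, and without the cells of highest doublet score Retnla was at -1.60. Of the 5 genes at least 0.5 log2 lower, 3 passed that bound only under some settings: Arg1 did not without cells of at least 5 Arg1 UMIs (above), Mgl2 was at -0.06 with equal weight per cluster, -0.33 with the cap and -0.49 without cells of at least 5 Arg1 UMIs, and Chil3 was at -0.34 with equal weight per cluster and -0.495 after thinning. Chil3 changed sign over all cells kept (0.10), and Clec10a with equal weight per cell (0.028) and with the cap (0.023). The median of the genes at 5 CPM was -0.90 with the stricter cell filter, -0.57 and -0.37 without cells of at least 10 and 5 Arg1 UMIs, -0.91 with the listed genes kept in the principal components, -0.51 over all cells, -0.23 with equal weight per cluster and -0.57 after thinning. The number of higher genes was 2 over all cells, with equal weight per cell and with the cap. Cells over the Arg1 limit made up 0.457% of BGL and 3.40% of PBS cells at 5 UMIs and 0.0527% and 2.07% at 20 UMIs. They made up 0.0468% of BGL and 2.16% of PBS cells after thinning, and 0.167% of BGL and 2.08% of PBS barcodes with no cell filter. The share of all genes at least 0.5 log2 higher was 2.03% from 1 CPM and 16% with any UMI; the share lower was 2.83%, 16.3%, and 0.696% from 50 CPM. The causes of these shifts were not tested beyond what each setting leaves out. Depth limits Arg2 and Nos2 in the compartment, at 49 and 31 and at 5 and 1 UMIs.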

Other observations

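Outside the compartment several of the 10 genes were found in cells of other kinds. Slc7a2 was at 158 CPM in BGL and 56.9 CPM in PBS cells of the endothelial-like cluster 16, and the stromal-like cluster 12 had a UMI of it in 46.2% and 43.8% of its cells (18.9% and 15.1% thinned to 3000 UMIs). The proliferating-like cluster 14 followed the compartment in the direction of CPM: Slc7a2 was at 4.81 CPM in 51 BGL cells and 263 CPM in 76 PBS cells, Retnla at 70.7 and 831 CPM, and Arg1 had 0 UMIs in BGL and 514 in PBS. A single PBS cell held 1598 of the 2162 Retnla UMIs, and a single PBS cell held 373 of the 514 Arg1 UMIs. Thinned to 3000 UMIs, 11.8% of BGL and 13.2% of PBS cells had Retnla, so its shares were close. The shares were 0% and 18.4% for Slc7a2 and 0% and 7.9% for Arg1. Of the PBS cells of cluster 14, 12 had 10 or more Slc7a2 UMIs, 7 had 10 or more Retnla UMIs and 5 had 10 or more Arg1 UMIs, and 3 passed for all of these genes. In the cytotoxic lymphocyte-like cluster 13 Mgl2 was at 160 and 157 CPM, from 9 BGL and 4 PBS cells.

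In PBS cluster 1, 46 cells had 10 or more Slc7a2 UMIs, and 13 of them had 10 or more Arg1 UMIs as well. In BGL cluster 1 these numbers were 27 and 0. Within cluster 1, cells with much Slc7a2 were thus found in both libraries. BGL cluster 1 had 1 cell with 10 or more Arg1 UMIs, too few for an overlap of both genes to be described there.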
